A study of Mus musculus with 6 samples.

Results

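Antibody genes were examined in RNA from cells sorted as mouse hematopoietic stem cells (HSCs), which do not make antibody. The members were every row whose annotated type was an immunoglobulin gene segment or constant region and not a pseudogene, together with Jchain, and they came to 163 of the 27198 genes in the table. They comprised 137 V segments (74 heavy, 60 kappa and 3 lambda), 3 heavy D segments, 11 J segments (4 heavy, 5 kappa and 2 lambda), 11 constant genes (7 heavy, 1 kappa and 3 lambda) and Jchain. Every gene in the table had at least 1 count in at least 1 library, so V segments with no read in any library are not among the 137.

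An antibody is built from a heavy chain and a kappa or lambda light chain. Each B cell joins a single V segment to a J segment, with a D segment between them in the heavy chain, and the joined variable exon is spliced to a constant gene, so a clone of B cells carries its own V segments. Class switching exchanges the mu constant gene, Ighm, for a gamma, epsilon or alpha gene. Plasma cells, the antibody-secreting cells that lodge in bone marrow, hold very large amounts of these transcripts, and Jchain encodes the small protein that links IgM and IgA into polymers. Unrearranged constant genes can also be transcribed as sterile transcripts that contain no V segment.

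HSCs had been sorted as lineage-, Sca-1+, c-Kit+, CD34- and Flk2- cells from bone marrow of wild-type male C57BL/6 mice aged 8 to 10 weeks, and the lineage antibodies included B220, a B cell antigen that many plasma cells lack. Mice of the l-FA group had received ferulic acid, a plant phenolic acid, by intraperitoneal injection at 50 mg/kg daily for 30 days, while Ctrl mice had received the solvent. Both groups were otherwise untreated, with no irradiation. Each group had 3 libraries of amplified poly(A) cDNA, with 19287735 to 20380610 counts in Ctrl and 19505689 to 20376031 in l-FA. How many mice went into a library is not given in the sources used here, so p-values measure only the spread between these libraries, which may be technical. In such bulk RNA, fewer cells of a type and less RNA per cell cannot be told apart.

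HSC transcripts were present in all 6 libraries, and the 12 genes of the HSC list summed to 3650 to 3733 CPM (TMM-normalised counts per 1000000) in Ctrl and 4498 to 4622 in l-FA. Most of this sum was Cd34 and Flt3, which encode proteins that the sort gated against and which averaged 1343 and 759 CPM in Ctrl and 1579 and 1183 in l-FA. The other 10 genes summed to 1570 to 1609 CPM in Ctrl and 1797 to 1815 in l-FA. The 10 genes of the neutrophil list summed to 22187 to 23112 CPM in Ctrl and 5523 to 5840 in l-FA. Nearly all of this was the granule genes Mpo, Elane and Prtn3, which averaged 18544, 3211 and 715 CPM in Ctrl and 4938, 455 and 228 in l-FA. The other genes of the list averaged from 0.293 (Ly6g) to 44.8 CPM (Itgam) in Ctrl, and from 0 to 63.6 in l-FA. What part the transcripts of this list had in the results on antibody genes was not tested.

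A set of V segments from both sides of the comparison is shown first, because B cell clones differ in the V segments they use. Unrearranged V segments can be transcribed too, and gene-level counts do not show whether a V segment was joined. Reference sequences of all 137 V segments were found by Ensembl gene identifier in the GENCODE M21 transcripts (build GRCm38). The last 60 bases are printed 5′ to 3′, and capitals mark the codon of the conserved cysteine near the end of the segment, after which the joined part of the antigen-binding loop begins. The 4 segments printed first were found at 66 to 249 counts in every Ctrl library and at 0 or 1 count in every l-FA library. Of the other 4, Igkv10-96 and Ighv4-1 had no count in Ctrl, and Ighv11-2 and Igkv14-126 had more counts in every l-FA library than in any Ctrl library.
Ighv1-64: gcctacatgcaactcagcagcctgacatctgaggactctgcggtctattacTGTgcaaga
Ighv9-3: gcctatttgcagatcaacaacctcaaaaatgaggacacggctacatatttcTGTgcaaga
Igkv3-4: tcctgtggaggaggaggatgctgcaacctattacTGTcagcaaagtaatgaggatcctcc
Igkv4-61: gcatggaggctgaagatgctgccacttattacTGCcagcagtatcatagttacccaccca
Ighv4-1: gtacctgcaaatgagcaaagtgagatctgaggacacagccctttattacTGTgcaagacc
Igkv10-96: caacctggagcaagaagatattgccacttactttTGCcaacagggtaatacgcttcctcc
Ighv11-2: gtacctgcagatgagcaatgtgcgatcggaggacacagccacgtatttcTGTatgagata
Igkv14-126: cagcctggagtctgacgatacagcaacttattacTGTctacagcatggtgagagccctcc

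The members together made up a small and similar share of both groups, 0.130 to 0.134% of counts in Ctrl and 0.133 to 0.136% in l-FA. Their summed counts were 26291, 25780 and 26512 in the Ctrl libraries and 27770, 26012 and 26226 in the l-FA libraries. Within this near-constant total, the kinds of heavy chain and the V segments differed between the groups. A gene was called when its edgeR quasi-likelihood adjusted p (Benjamini-Hochberg over 16520 genes tested) was under 0.05 and its fold change above 2. Of 89 members with enough counts to be tested, 29 were called higher in l-FA, 33 were called lower and 27 were not called, while over all genes tested 6.68% were called higher and 5.10% lower. Counts in all 3 l-FA libraries lay above those of every Ctrl library, after normalisation, for 40 members and below them for 35, beside 30.4% and 29.9% of all genes tested. Of the 74 members not tested, 35 were at 3 counts or fewer in every library. A member that passed the filter through the counts of a single group had to differ, and 27 of the 62 called V or constant genes had no count in any library of the lower group, so these totals are a description and not support.

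Heavy constant genes shifted from IgA and IgG2c toward IgM. Ighm, the mu constant gene (chr12:113382178-113386350 in GRCm39), had 11814, 11788 and 12381 counts in Ctrl and 17217, 16066 and 16350 in l-FA. All l-FA libraries lay above all Ctrl libraries, at 813 ± 10.5 against 623 ± 8.18 CPM (SD, n = 3 each). The log2 fold change of 0.38 (SE 0.019, adjusted p = 2.86e-05) passed the test but not the 2-fold limit. Igha, the constant gene of IgA, had 4495, 4378 and 4741 counts in Ctrl and 2157, 2132 and 2149 in l-FA. It was lower in every l-FA library, with a log2 fold change of -1.16 (SE 0.028, adjusted p = 2.29e-06). Ighg2c, an IgG subclass of C57BL/6 mice, fell further, from 1078, 1012 and 1138 counts to 315, 321 and 285, with a log2 fold change of -1.89 (SE 0.059, adjusted p = 5.36e-06).

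The remaining heavy constant genes were lower in level. Ighg2b had 428, 349 and 417 counts in Ctrl and 306, 291 and 267 in l-FA, a log2 fold change of -0.54 (SE 0.087, adjusted p = 0.00228) that did not reach the 2-fold limit. Ighd, whose product IgD is carried with IgM by mature naive B cells, rose from 46, 63 and 49 counts to 113, 144 and 118, with a log2 fold change of 1.17 (SE 0.18, adjusted p = 0.00220). Its groups did not overlap. Ighg1 was found almost only in l-FA, with 1, 0 and 0 counts in Ctrl and 59, 67 and 97 in l-FA. The ratio of its summed normalised counts was 211, with an exact 95% counting interval of 37.5 to 8375 that covers counting error only, and the gene was called higher (adjusted p = 0.000145). Ighe, the constant gene of IgE, had no count in Ctrl and 5, 8 and 4 counts in l-FA. It was too low to be tested, and against a floor of 3 counts per library its mean was at least 1.79-fold higher in l-FA.

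**Figure D1:**
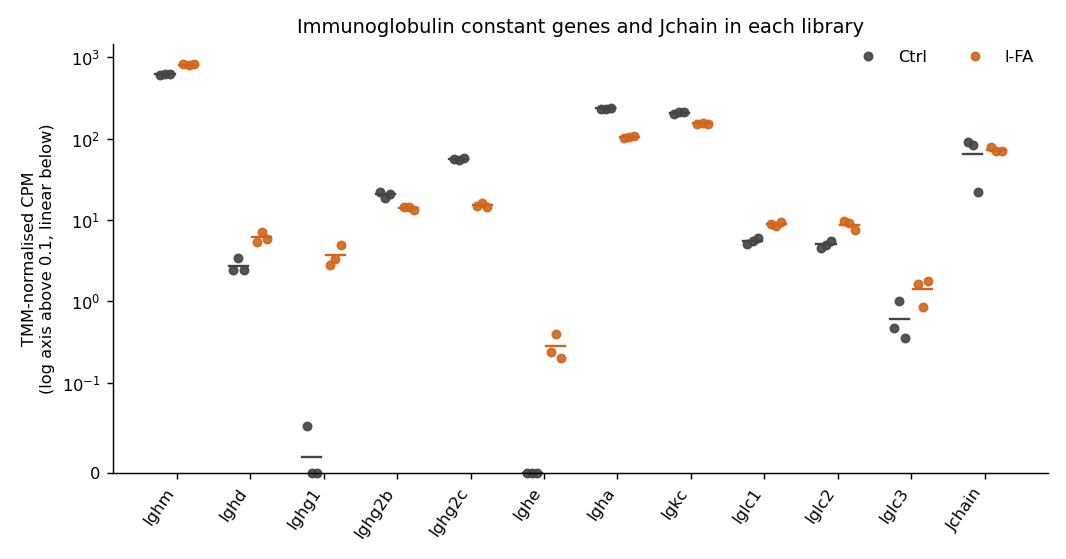
TMM-normalised CPM of each immunoglobulin constant gene and Jchain (vertical axis, logarithmic above 0.1 and linear below) in the 3 Ctrl and 3 l-FA libraries, with each point a library and each line a group mean. Igha and Ighg2c were lower and Ighm, Ighd and Ighg1 higher in every l-FA library than in any Ctrl library, and Jchain was low in Ctrl library 3, at 21.9 CPM.

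Levels of different genes were compared on the deposited FPKM scale, which corrects for the length assigned to each gene, such as 3001 bases for Igha and 2219 for Ighm. On it, Ighm made up 69.9% ± 0.502 (SD, n = 3) of heavy constant FPKM in Ctrl and 87.2% ± 0.443 in l-FA. The share of Igha was 19.5% ± 0.178 in Ctrl and 8.37% ± 0.219 in l-FA, and that of Ighg2c was 8.47% ± 0.255 and 2.19% ± 0.145. The order Ighm, Igha, Ighg2c, Ighg2b held in every library. Summed over the 7 heavy constant genes, CPM of the total count, without TMM, were 912 ± 7.49 in Ctrl and 983 in l-FA, and without Ighm the log2 ratio of the sum was -1.04, so the balance between heavy constant genes differed far more than their sum.

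Light chains moved from kappa toward lambda by a small amount. Igkc, the only kappa constant gene (chr6:70703419-70703950 in GRCm39), had 3882, 3945 and 4303 counts in Ctrl and 3220, 3112 and 3065 in l-FA. Every l-FA library was lower, with a log2 fold change of -0.45 (SE 0.031, adjusted p = 9.15e-05) that stayed under the 2-fold limit. Iglc1 had 97, 104 and 121 counts in Ctrl and 186, 169 and 189 in l-FA, a log2 fold change of 0.68 (SE 0.10, adjusted p = 0.00196). Iglc2 had 86, 93 and 110 counts in Ctrl and 202, 182 and 152 in l-FA, a log2 fold change of 0.81 (SE 0.13, adjusted p = 0.00242). The groups overlapped for Iglc3, at 9, 19 and 7 counts against 34, 17 and 35 (log2 fold change 1.20, SE 0.45, adjusted p = 0.0645). Kappa took 95.6% ± 0.261 of light constant FPKM in Ctrl and 90.3% ± 0.554 in l-FA. Iglc1 and Iglc3 lie inside the listed gene 2010309G21Rik and Iglc2 overlaps Iglj2, so their reads may be split or shared with those rows.

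Jchain, which IgM and IgA polymers and most plasma cells carry (chr5:88667668-88675750 in GRCm39), had 1737, 1572 and 437 counts in Ctrl and 1638, 1402 and 1428 in l-FA. Ctrl library 3 lay far below the other 5 libraries. With it, the log2 fold change was 0.16 (SE 0.47, adjusted p = 0.802), and without it the value was -0.26 (adjusted p = 0.0225), so the direction rested on that library. The constant genes did not share this drop, since Igha and Ighm had more counts in Ctrl library 3 than in the other Ctrl libraries. Tnfrsf13b, the receptor TACI of B and plasma cells, was low in the same library, with 2588, 2458 and 793 counts in Ctrl and 3354, 3003 and 3023 in l-FA.

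V segments were called in both directions. Of the 137, 76 were tested, 27 (35.5%) were called higher in l-FA, 31 (40.8%) were called lower and 18 were not called. Over all genes tested these shares were 6.68% and 5.10%. No count at all was found in Ctrl for 16 of the 27, and none in l-FA for 11 of the 31. Among the 41 segments with more than 3 counts in at least 1 library of each group, 7 (17.1%) were called higher, 16 (39.0%) lower and 18 were not called. Of 10 constant genes tested, 2 were called higher and 2 lower. Whether these shares differ was not tested. The split was similar at both large loci, with 14 higher and 15 lower of 37 heavy V segments tested and 12 higher and 16 lower of 36 kappa V segments tested.

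**Figure D2:**
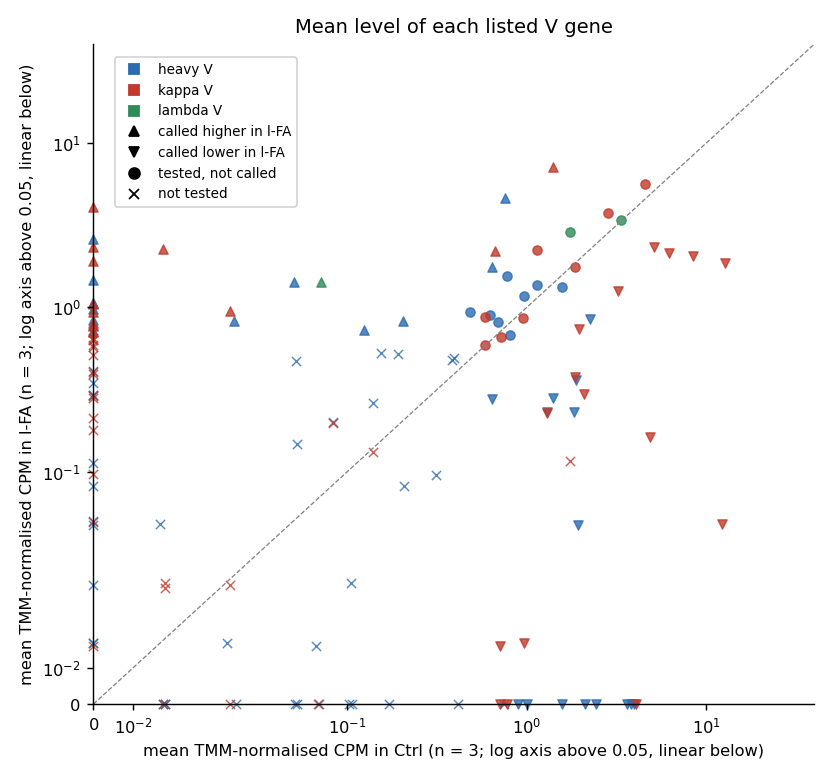
Mean TMM-normalised CPM of each of the 137 V segments in Ctrl (horizontal axis) and l-FA (vertical axis; both logarithmic above 0.05 and linear below, n = 3 libraries each), with colour for the locus, marker shape for the call and a dashed line of equal level. Many segments lie on an axis, meaning no count in any library of 1 group, and 18 tested segments near the dashed line were not called.

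Which V segments were found at all was recurrent between the libraries of a group. Whether these libraries came from separate mice is not given in the sources used here, so recurrence between mice was not tested. In Ctrl, 67 V segments had a count in all 3 libraries, and in l-FA 86 did. The 44 found in all 6 libraries were 65.7% of the Ctrl set and 51.2% of the l-FA set. There were 15 segments in all 3 Ctrl libraries and no l-FA library, and 32 in all 3 l-FA libraries and no Ctrl library, beside 2.78% and 3.34% of all 27198 genes. At the kappa locus these numbers were 4 and 20, and at the heavy locus 11 and 12. The excess in l-FA rested on segments with few counts. Asking for at least 10 counts in a library, 49 segments were found in all 3 Ctrl and 50 in all 3 l-FA libraries, and 24 and 23 reached this level in all libraries of that group and in none of the other, beside 1.31% and 1.79% of all genes. The kappa numbers were then 9 and 10, and the heavy numbers 15 and 12.

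On V segments, the spread between libraries of a group was near counting error at the counts found. Whether it holds any spread between mice cannot be told, since the number of mice per library is not given. For segments averaging at least 5 counts, the median chi-square of the 3 libraries of a group was 1.21 in Ctrl (59 segments) and 1.65 in l-FA (77 segments), where counting error alone gives 1.39, and 2 and 7 segments lay over its 95% point. The measure grows with the count for a given spread, so genes of different depth cannot be set against each other by it. For the constant genes, which have more counts, it was 3.09 in Ctrl (9 genes) and 2.0 in l-FA (11 genes). Jchain was at 858 in Ctrl. Igkv2-137, which overlaps Gm42889, also varied, with 39, 3 and 60 counts in Ctrl and 0, 1 and 6 in l-FA.

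Among kappa V segments, the highest in Ctrl were Igkv8-30 and Igkv4-61, and both were lower in l-FA. Igkv8-30 had 240, 237 and 261 counts in Ctrl and 43, 28 and 43 in l-FA, a log2 fold change of -2.77 (SE 0.16, adjusted p = 4.44e-05). Igkv4-61 had 249, 224 and 229 counts in Ctrl and 1 in each l-FA library. The Ctrl libraries thus exceeded l-FA by a ratio of 247 (exact 95% counting interval 84.2 to 1202, adjusted p = 1.76e-06). Igkv19-93 fell from 173, 153 and 160 counts to 46, 44 and 36 (log2 fold change -2.02, SE 0.12, adjusted p = 5.43e-05). Igkv3-4 had 79, 76 and 79 counts in Ctrl and none in l-FA. Against the floor of 3 counts per library, the l-FA mean lay at least 27.5-fold lower. Igkv6-23 lay closer to equality, at 85, 84 and 96 counts against 124, 110 and 108 (log2 fold change 0.29, SE 0.097, adjusted p = 0.0458), and was not called.

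Other kappa V segments were high in l-FA. Igkv14-126 rose from 22, 30 and 29 counts to 151, 140 and 146, a log2 fold change of 2.35 (SE 0.14, adjusted p = 5.46e-05), and was the highest kappa V segment in l-FA at 7.16 ± 0.167 CPM (SD, n = 3). Igkv10-96 had no count in Ctrl and 94, 91 and 66 in l-FA, at least 26.3-fold higher. Igkv12-46, also without a count in Ctrl, had 66, 45 and 33 in l-FA, at least 15.1-fold higher. Igkv15-103 rose from 14, 7 and 18 counts to 46, 41 and 47 (log2 fold change 1.70, SE 0.28, adjusted p = 0.00268).

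Igkv17-127 and Igkv17-121 were called in opposite directions although their sequences are nearly the same. Igkv17-127 had 84, 102 and 94 counts in Ctrl and 6, 0 and 4 in l-FA (log2 fold change -4.84, SE 0.48, adjusted p = 0.000335). Igkv17-121 had 1, 0 and 0 counts in Ctrl and 44, 51 and 44 in l-FA, a ratio of 132 with an exact 95% counting interval of 23.2 to 5234. Their reference transcripts of 359 bases differ at 9 positions. The last 120 bases are printed below with the 3 differing bases in capitals, since only reads that cover such bases tell the segments apart.
Igkv17-127: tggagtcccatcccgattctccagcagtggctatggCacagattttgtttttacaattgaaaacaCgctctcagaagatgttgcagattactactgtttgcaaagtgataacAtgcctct
Igkv17-121: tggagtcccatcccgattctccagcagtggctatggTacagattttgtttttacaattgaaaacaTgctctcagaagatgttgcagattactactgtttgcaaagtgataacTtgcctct

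Such near-copies limit single V segments more generally. Over the last 240 bases, the median identity of the 137 segments to their nearest other V segment was 95%. At 97% identity or more were 29 segments, of which 14 were called. Without them, 22 V segments were called higher and 22 lower.

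Among heavy V segments, the highest in Ctrl were absent from l-FA. Ighv1-64 had 69, 66 and 94 counts in Ctrl and none in l-FA, at least 26.8-fold lower. Ighv1-85 had 75, 80 and 65 and Ighv9-3 had 66, 69 and 74 counts in Ctrl, and neither had a count in l-FA, at least 25.9-fold and 24.5-fold lower. The same pattern held at lower level for Ighv13-2, with 42, 41 and 58 counts in Ctrl, and Ighv5-16, with 36, 42 and 44. Ighv6-3 was lower but not lost, at 43, 47 and 39 counts against 18, 16 and 18 (log2 fold change -1.39, SE 0.17, adjusted p = 0.000800).

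Ighv11-2 was the highest heavy V segment in l-FA, rising from 15, 12 and 17 counts to 97, 93 and 94 (log2 fold change 2.60, SE 0.15, adjusted p = 4.12e-05). It differs from Ighv11-1 at 2 of the last 240 bases, and Ighv11-1 had 3, 0 and 0 counts in Ctrl and 10, 13 and 6 in l-FA. Ighv11-2 and Igkv14-126 are known as partners in antibodies of B-1 cells that bind phosphatidylcholine. Here they were the highest heavy and kappa V segments of the l-FA libraries, and bulk counts do not show whether they came from the same cells. Ighv4-1 had no count in Ctrl and 50, 49 and 59 in l-FA, at least 16.6-fold higher. Ighv1-74 rose from 12, 9 and 16 counts to 32, 43 and 32 (log2 fold change 1.45, SE 0.25, adjusted p = 0.00339).

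All 3 lambda V segments were tested. Iglv1 had 64, 54 and 77 counts in Ctrl and 74, 68 and 66 in l-FA, which overlapped (log2 fold change 0.02, SE 0.14, adjusted p = 0.943). Iglv2 had 38, 30 and 33 counts in Ctrl and 58, 61 and 56 in l-FA (log2 fold change 0.71, SE 0.14, adjusted p = 0.00610), without reaching the 2-fold limit. Iglv3 rose from 0, 4 and 0 counts to 30, 22 and 35, a ratio of 20.6 with an exact 95% counting interval of 7.76 to 77.3. Iglv1 and Iglv2 are 97.5% identical over the last 240 bases. Iglv3 overlaps the listed gene Gm56600 and Iglv1 overlaps 2010309G21Rik, so their reads may be split or shared with those rows.

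Some V families were found in only 1 of the groups, as sums over their members with no test. The 4 Ighv9 segments summed to 77, 81 and 84 counts in Ctrl and 0 in l-FA, while the 3 Igkv10 segments summed to 0 in Ctrl and 121, 112 and 85 in l-FA. Igkv3 summed to 167, 146 and 181 counts in Ctrl and 30, 39 and 17 in l-FA, and Igkv8 to 263, 261 and 290 in Ctrl and 69, 42 and 58 in l-FA. The groups did not overlap for either family. The Ighv1 family, the largest with 39 listed members, differed less, at 480, 462 and 523 counts in Ctrl and 354, 326 and 342 in l-FA.

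**Figure D3:**
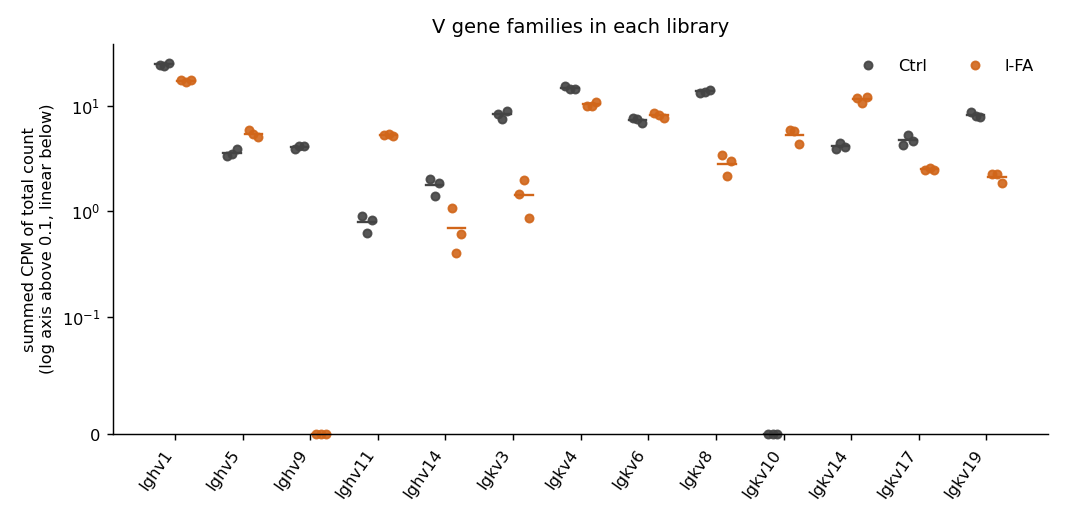
Summed CPM of the total count for 13 V families (vertical axis, logarithmic above 0.1 and linear below) in the 3 Ctrl and 3 l-FA libraries, with each point a library and each line a group mean. Ighv9 was at 0 in l-FA and Igkv10 at 0 in Ctrl, whereas Igkv6 lay between 6.87 and 8.59 in all 6 libraries.

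Kappa V use was also less concentrated in l-FA. The 5 highest kappa V segments took 52.9% ± 1.56 (SD, n = 3) of kappa V counts in Ctrl and 39.5% ± 0.444 in l-FA. The effective number of kappa V segments, the inverse of the summed squared shares, was 12.9 ± 0.670 in Ctrl and 20.2 ± 0.654 in l-FA. For heavy V segments it was 21.4 ± 0.995 and 22.6 ± 0.562. Summed kappa V counts were 82.3 ± 3.54 CPM of the total count in Ctrl and 60.7 in l-FA, and those of heavy V segments were 42.3 ± 1.55 and 36.8.

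Segments of both groups were spread over the whole length of each locus. The count-weighted median distance from the first J segment was 1289 ± 41.8 kb in Ctrl and 1114 ± 34.7 kb in l-FA for heavy V segments (SD, n = 3). For kappa it was 1305 kb in every Ctrl library, the position of Igkv4-61, and 2031 ± 53.5 kb in l-FA.

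**Figure D4:**
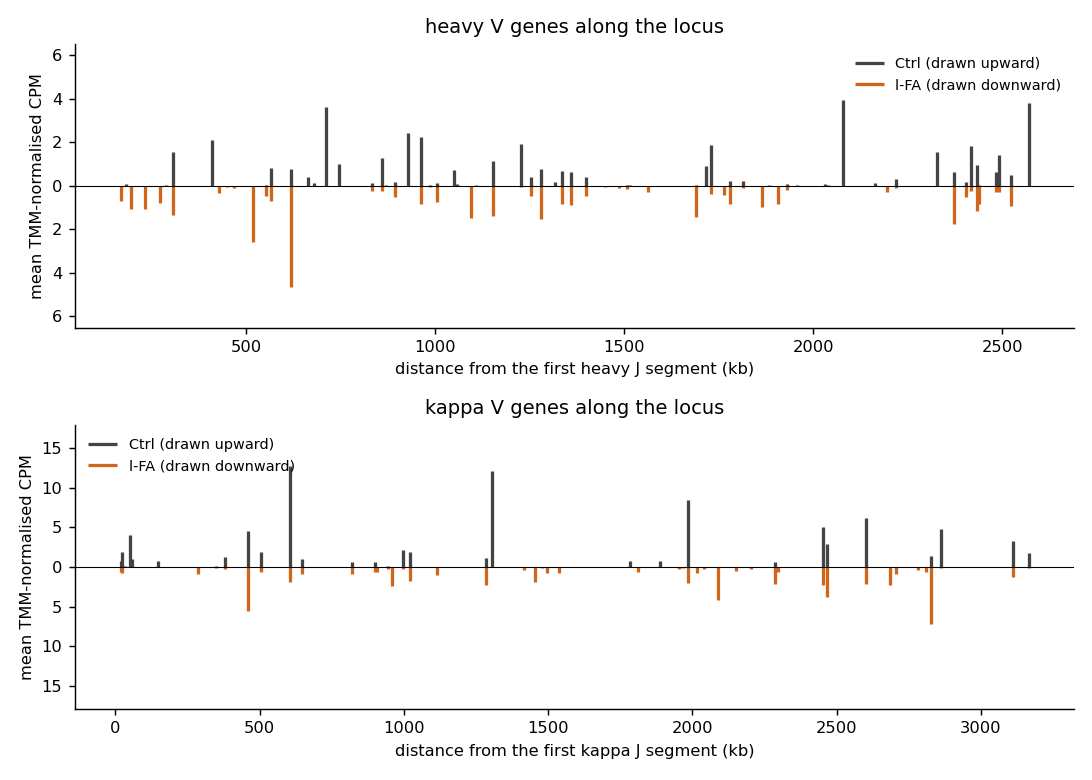
Mean TMM-normalised CPM of heavy (top) and kappa (bottom) V segments against distance in kb from the first J segment of the locus, with Ctrl drawn upward and l-FA downward (n = 3 libraries each). Tall bars of the groups mostly stand at different segments, and Ighv11-2 and Igkv14-126 are the tallest l-FA bars at 4.65 and 7.16 CPM.

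On the deposited FPKM scale, V segments amounted to a smaller fraction of constant genes at the heavy locus than at the kappa locus. These fractions depend on the lengths behind the FPKM. Some V segments had lengths well above their reference transcript, such as Igkv4-61 at 666 against 382 bases. Summed heavy V FPKM was 26.4% ± 0.717 (SD, n = 3) of summed heavy constant FPKM in Ctrl and 20.9% ± 0.384 in l-FA. The corresponding kappa values were 51.2% ± 2.49 and 53.3% ± 2.34, which overlapped between the groups. For lambda they were 61.8% ± 8.0 and 53.2% ± 1.42.

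J and D segments carried few counts. The 4 heavy J segments summed to 46, 52 and 53 counts in Ctrl and 71, 69 and 68 in l-FA. Ighj1 and Ighj2 were tested and neither was called, with adjusted p = 0.0605 and 0.543. The 5 kappa J, 2 lambda J and 3 D segments had at most 3 counts in any library. T cell receptor constant genes, which mark the other lymphocytes that rearrange V segments, summed to 130, 160 and 143 counts over 7 genes in Ctrl and 135, 111 and 129 in l-FA. Within this sum Trgc1 and Trgc4 were called lower, Trac had 13, 5 and 8 counts in Ctrl and none in l-FA, and Trbc2 had 30, 23 and 26 counts in Ctrl and 61, 46 and 52 in l-FA (log2 fold change 0.93, SE 0.17, adjusted p = 0.00405).

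Markers of antibody-secreting cells were called in both directions. Of 20 listed genes, 16 were tested, 3 were called higher in l-FA (Prdm1, Derl3 and Cd38) and 1 lower (Fkbp11). Over all genes tested 6.68% were called higher and 5.10% lower. The median log2 fold change of the list was 0.37, beside 0.0035 over all genes tested. All l-FA libraries lay above all Ctrl libraries for 9 of the 16, beside 30.4% of all genes tested, and below them for 4, beside 29.9%. The 20 genes summed to 875 to 961 CPM in Ctrl and 849 to 945 in l-FA. Most of this was Xbp1, Sec11c, Creld2, Edem1, Txndc5 and Tnfrsf13b, at means of 102 to 219 CPM in Ctrl and 68.8 to 182 in l-FA. Among these, Txndc5 had 1813, 1732 and 3699 counts in l-FA. The list also held genes of low level, such as Mzb1 at 1.31 CPM in Ctrl and 0.948 in l-FA. Prdm1, the transcription factor Blimp-1 that drives plasma cell differentiation, rose from 3, 5 and 11 counts to 58, 58 and 40 (log2 fold change 2.94, SE 0.38, adjusted p = 0.000921). Derl3, of the degradation machinery of the endoplasmic reticulum, rose from 10, 10 and 8 counts to 29, 37 and 60 (log2 fold change 2.08, SE 0.36, adjusted p = 0.00335). Cd38, an ectoenzyme also found on other blood cells, rose from 40, 29 and 32 counts to 188, 155 and 172 (log2 fold change 2.27, SE 0.15, adjusted p = 6.74e-05). Since other blood cells carry it, Cd38 is not particular to antibody-secreting cells, and which cells its transcripts came from was not tested.

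Markers within the same list differed in direction. Fkbp11, a folding factor of secretory cells, fell from 393, 339 and 430 counts to 188, 160 and 142 (log2 fold change -1.32, SE 0.11, adjusted p = 0.000188). Xbp1, a transcription factor of the secretory program that many cells express, had 4090, 4150 and 4437 counts in Ctrl and 3315, 3209 and 3228 in l-FA (log2 fold change -0.46, SE 0.028, adjusted p = 5.83e-05). Sdc1, which encodes the plasma cell surface marker CD138, had 522, 494 and 560 counts in Ctrl and 742, 747 and 740 in l-FA (log2 fold change 0.42, SE 0.051, adjusted p = 0.000726). Neither Xbp1 nor Sdc1 reached the 2-fold limit. Mzb1, a chaperone of IgM assembly, had 27, 16 and 33 counts in Ctrl and 24, 8 and 26 in l-FA, which overlapped (adjusted p = 0.423). Irf4 and Tnfrsf17, the latter encoding the plasma cell receptor BCMA, were too low to be tested, at 0 to 5 and 0 to 6 counts in Ctrl and 8 to 20 and 0 to 10 in l-FA. Pou2af1, a coactivator of immunoglobulin promoters, had 3, 0 and 2 counts in Ctrl and none in l-FA.

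**Figure D5:**
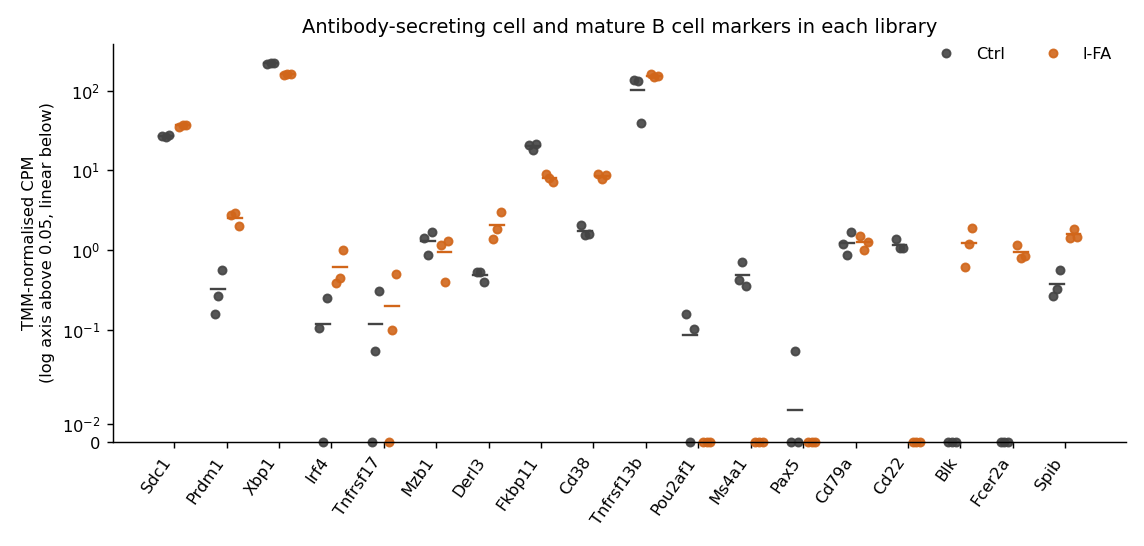
TMM-normalised CPM of markers of antibody-secreting cells (Sdc1 to Pou2af1) and mature B cells (Ms4a1 to Spib) in each library (vertical axis, logarithmic above 0.05 and linear below), with each point a library and each line a group mean. Prdm1, Derl3 and Cd38 were higher and Fkbp11 lower in every l-FA library, and Ms4a1, Pax5, Cd22, Blk and Fcer2a were at 0 throughout at least 1 group.

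Several defining genes of mature B cells were at or near 0. Of 16 listed, 11 were tested, 3 were called higher in l-FA (Blk, Fcer2a and Spib) and 2 lower (Cd22 and Fcrla). Over all genes tested 6.68% were called higher and 5.10% lower. Blk and Fcer2a had no count in Ctrl, and Cd22 and Fcrla had none in l-FA. These genes passed the filter through a single group and had to differ, so only the call of Spib had counts in both groups. The list had a median log2 fold change of 0.22 and a summed level of 157 to 162 CPM in Ctrl and 183 to 185 in l-FA. Most of that level was Cd72, Cd79b and Ralgps2, at 57.9, 53.0 and 40.9 CPM in Ctrl. Ms4a1, which encodes CD20, had 8, 13 and 7 counts in Ctrl and none in l-FA, and Pax5, the transcription factor of B cell identity, had 1 count in all 6 libraries together. Cd22, an inhibitory receptor of B cells, had 26, 20 and 21 counts in Ctrl and none in l-FA, whereas Fcer2a, which encodes CD23, had none in Ctrl and 24, 16 and 17 in l-FA. Blk, a kinase of the B cell receptor pathway, had none in Ctrl and 13, 24 and 38 in l-FA. Spib, a transcription factor of B cells and plasmacytoid dendritic cells, rose from 5, 6 and 11 counts to 30, 37 and 29 (log2 fold change 2.03, SE 0.29, adjusted p = 0.00153). Cd79a, part of the B cell receptor, had 23, 16 and 33 counts in Ctrl and 31, 20 and 25 in l-FA.

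In the other cell type lists, 1 of 8 tested pro-B and pre-B genes was called higher (Rag2) and none lower, beside 6.68% and 5.10% of all genes tested. This list summed to 636 to 655 CPM in Ctrl and 877 to 893 in l-FA. Most of it was Dntt and Cd93, at 459 and 153 CPM in Ctrl and 640 and 186 in l-FA. Rag1, Vpreb3 and Igll1 were low, at 0.157, 0.434 and 1.08 CPM in Ctrl and 0.147, 0.247 and 1.21 in l-FA. Vpreb1 and Vpreb2 were not among the genes in the table. Of 5 tested T and NK genes, 1 was called higher (Cd4) and 1 lower (Klrb1c). Of 9 tested genes of the neutrophil list none was called higher and 8 were called lower, with a median log2 fold change of -1.63. Itgam of this list was higher in every l-FA library (log2 fold change 0.50, SE 0.083, adjusted p = 0.00266), under the 2-fold limit. Of 10 tested monocyte, macrophage and dendritic cell genes 1 was called higher and 3 lower, and of 5 tested erythroid genes none was called higher and 1 lower. Which cells the transcripts of these lists came from, and what part they had in the differences of the antibody genes, was not tested.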

How the data were processed

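Counts per gene were deposited by the authors for 3 Ctrl and 3 l-FA libraries, with FPKM per gene alongside in the same deposited table. The submitters' processing notes name HISAT2, SAMtools 1.3.1, StringTie, edgeR and build GRCm39 with no role or order. Whether counting used strand or shared multi-mapping reads is not given in the sources used here. Groups came from the sample labels. The members and marker lists were chosen with earlier results of these data known.

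All 27198 genes entered 1 fit in R 4.3.3 with edgeR 4.0.16 (TMM, filterByExpr, glmQLFit and glmQLFTest), and 16520 passed the filter. A gene was called at adjusted p under 0.05 and fold change above 2. The procedure was also run on counts simulated from the means and spread of these libraries, with an outcome not reported here. The 169 rows with an identifier but no gene symbol held 0.143% of counts and entered the fit. Sums, shares and detection of V segments are values without a test. Folds against a group with no count use a floor of 3 counts per library. Ratios of single genes against a group with few counts carry exact 95% counting intervals, which cover counting error only. V segments were compared by edit distance (edlib 1.3.9.post1).

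Genes named were Jchain, all constant genes, the 5 V segments of highest mean CPM per locus, the 8 largest rises and 8 largest falls among called V segments with a mean normalised count of at least 20, and called or preset marker genes, of which 1 is not reported here. Ighv11-1, Ighv10-1, Igkv2-137, the V families, the T cell receptor genes, Tnfrsf13b and Pou2af1 were named after their values were seen. So were marker genes given only for their level within a list. Alternatives were DESeq2 1.42.0, other scaling and filters, a replicate block, no fold limit and leaving out each library.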

Additional observations from a re-analysis of the deposited data

How the results depend on the processing

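With DESeq2, 30 members were called higher and 32 lower, beside 29 and 33. With RLE or upper-quartile scaling 29 and 30 were called higher and 33 lower in each. Of all 16520 genes tested, 1121 were called higher and 845 lower with DESeq2. These numbers were 1104 and 842 with RLE and 1130 and 819 with upper-quartile scaling. Leaving out each library in turn gave 29 to 36 members called higher and 33 to 35 lower, beside 1104 to 1193 and 874 to 949 of all 16852 to 17016 genes tested. With no low-count filter 48 of 163 members were called higher and 36 lower, beside 1789 and 1546 of all 27198 genes. Requiring at least 10 counts in every library left 33 members to test, by its construction none absent from a group. Of these, 3 were called higher and 9 lower, beside 516 and 414 of all 14630 genes tested. The log2 ratio of summed counts (l-FA over Ctrl) was -0.20 for heavy V segments, -0.28 with TMM effective library sizes and -0.37 without Ighv11-2. For kappa V segments it was -0.44, and -0.25 without Igkv8-30. For lambda V segments it was 0.65, and 1.32 without Iglv1. For heavy constant genes it was 0.11, 0.031 with TMM effective library sizes and -1.04 without Ighm. For the kappa constant gene it was -0.37, and -0.45 with TMM effective library sizes. Asking for 10 counts, 50 V segments in place of 86 were detected in all 3 l-FA libraries and 49 in place of 67 in all 3 Ctrl libraries, and 24 in place of 15 were detected in all Ctrl and no l-FA library and 23 in place of 32 in all l-FA and no Ctrl library.

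Replicate numbers did not pair the libraries, as correlations of the deviations of same-numbered libraries were 0.0187, -0.0132 and -0.0500. With the replicate block, 29 members were called higher and 33 lower, beside 1042 and 810 of all 16520 genes tested. Iglc3 was called with DESeq2 (adjusted p = 0.0255), without Ctrl library 2 (0.0219) and without l-FA library 2 (0.0355), and Rag2 fell under the 2-fold limit without Ctrl library 2 or l-FA library 2. The floor of 3 counts per library was a chosen value and not a measured limit of detection. Some members well above it could not be tested, such as Ighv10-1, with 10, 15 and 18 counts in Ctrl and none in l-FA.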
